A study of Mus musculus with 8 samples.

Results

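The genes described here are 6 members of the JNK and p38 kinase cascade, chosen by name from the 84 Toll-like receptor (TLR) pathway genes of a quantitative PCR plate: *Map3k1*, *Map2k3*, *Map2k4*, *Mapk8*, *Mapk9* and *Mapk8ip3*. All 6 were read in every column and none stood at the detection limit. RNA came from whole mouse spleen after 7 days of R848 (resiquimod, a small-molecule TLR7 agonist) at 1 mg per kg per day, or of PBS (Mock). The groups were TLR7-/- mice given R848 or Mock, IFNAR-/- mice (lacking the type I interferon receptor) given R848 or Mock, and C57BL/6 wild-type mice given R848 or Mock. Each of the 8 samples was RNA pooled from 3 mice. The deficient strains were sampled once per treatment, and the 2 wild-type experiments per treatment enter only as the authors' mean, so no value has a replicate error and no difference was tested. Ages and the design of the deletions are not given in the labels.

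In a mitogen-activated protein kinase (MAPK) cascade a MAP3K phosphorylates a MAP2K, which phosphorylates a MAPK. Downstream of TLRs the ubiquitin ligase TRAF6 and the kinase TAK1 feed the branches that end in JNK and p38, and these phosphorylate transcription factors such as c-Jun. The cascade works through phosphorylation of existing protein. The plate read the transcripts of its components, not the activity of the kinases, and no gene of p38 itself was analysed here.

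A level is given as delta-Ct, the cycle at which a gene crossed the detection threshold (Ct) minus the mean Ct of *Hprt1*, *Hsp90ab1* and *Gapdh*. A lower delta-Ct is a higher level, and 1 cycle is taken as a 2-fold difference. Delta-Ct values of different genes come from different primers, so a distance between 2 genes does not measure their relative level. Levels are compared within a gene, and distances between genes only for how they differ over columns. Sums over several genes carry the same limit. A log2 difference is the Mock minus the R848 delta-Ct, so it lies above 0 where R848 was higher. *Tlr7* was read in every column and does not check the strain labels, since it is not known here whether its PCR product lies in the deleted stretch. Its delta-Ct was 9.33 with R848 and 9.20 with Mock in TLR7-/- spleen, 8.23 and 10.43 in IFNAR-/- spleen, and 9.47 and 12 in wild-type spleen. *Ifnar1* and *Ifnar2* were not among the rows, so the IFNAR-/- label was not checked either. In bulk spleen, fewer cells of a type and less RNA per cell cannot be told apart.

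All 6 cascade genes had log2 differences above 0 in each strain, although *Map3k1* in IFNAR-/- and wild-type spleen and *Mapk8ip3* in IFNAR-/- spleen changed sign under another scaling. In TLR7-/- mice most stayed within 2-fold. In TLR7-/- spleen 1 of 6, *Map2k3*, was at least 2-fold higher with R848, against 4.76% of the 84 genes. In IFNAR-/- spleen 4 of 6 were, against 53.6%. In wild-type spleen 5 of 6 were, against 38.1%, the exception being *Map3k1*. No member was 2-fold lower in any strain, while 3.57% of the plate was in TLR7-/-, 2.38% in IFNAR-/- and 13.1% in wild-type spleen. The median log2 difference of the members was 0.52 in TLR7-/-, 1.75 in IFNAR-/- and 1.61 in wild-type spleen. That of all 84 genes was 0.07, 1.25 and 0.41 in the same strains. With each strain's differences centred on its plate median, 1 member stayed 2-fold higher in TLR7-/-, none in IFNAR-/- and 4 in wild-type spleen, beside 4.76%, 27.4% and 27.4% of the plate.

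**Figure D1:**
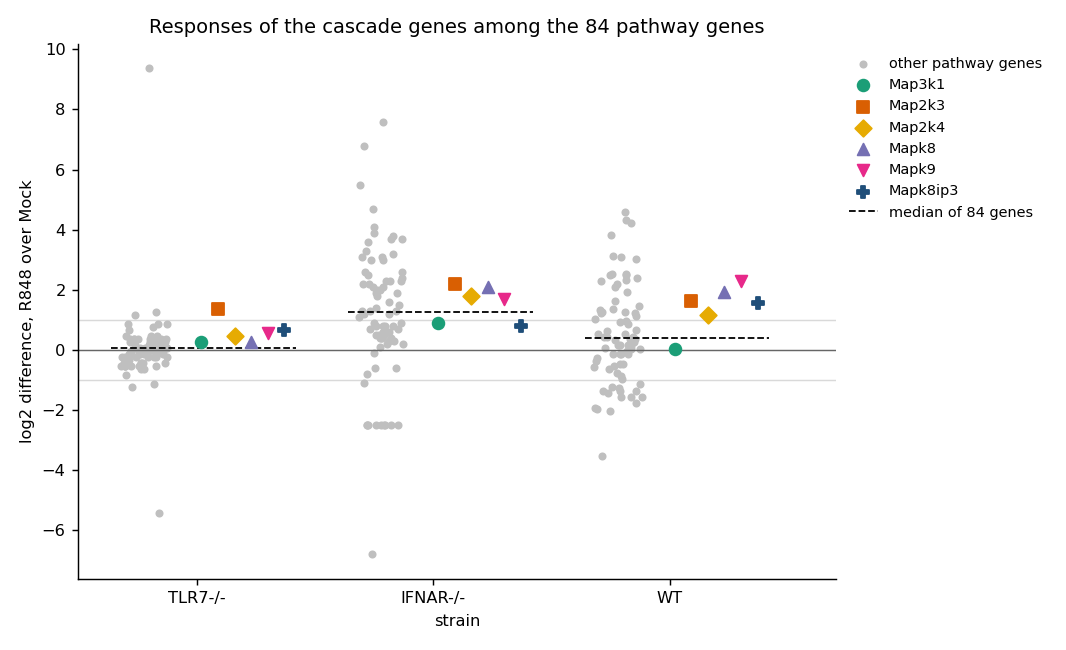
Log2 difference of R848 over Mock for each cascade gene (coloured symbols) and the other pathway genes (grey points) in each strain, with the median of the 84 genes as a dashed line and the 2-fold limits as light lines. Genes at the detection limit are drawn at their deposited values. The members lie above the dashed line in TLR7-/- spleen, and *Map3k1* and *Mapk8ip3* lie below it in IFNAR-/- spleen, as *Map3k1* does in wild type.

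The columns differed in how late the reference genes were read. In Mock the mean reference Ct was later than in R848 by 0.53 cycles in TLR7-/-, by 2.50 in IFNAR-/- and by at least 3.52 in wild-type spleen. This gap was widest in wild type, where it is known only as a lower bound. The part of the gap in the results was not tested. Ct values above 35 had been set to 35. The reading closest to that limit was *Mapk8* in IFNAR-/- Mock, at Ct 34.2. The other member readings lay at Ct 31.05 or earlier. A wild-type mean that includes 1 experiment at the limit could not be recognised.

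*Map3k1* encodes MEKK1, a MAP3K that acts on MKK4. Its delta-Ct was 4.83 with R848 and 5.10 with Mock in TLR7-/- spleen. It was 5.23 with R848 and 6.13 with Mock in IFNAR-/- spleen. It was 5.37 with R848 and 5.40 with Mock in wild-type spleen. The level thus lay within 1.30 cycles over all 6 columns, the narrowest span among the members, and IFNAR-/- Mock was the lowest. The log2 differences were 0.27 in TLR7-/-, 0.90 in IFNAR-/- and 0.03 in wild-type spleen, all within 2-fold. The wild-type value lay below 0 when scaled to 5 housekeeping genes, to *Gapdh*, to *Hprt1* or to the plate median, and the IFNAR-/- value did under the last of these.

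**Figure D2:**
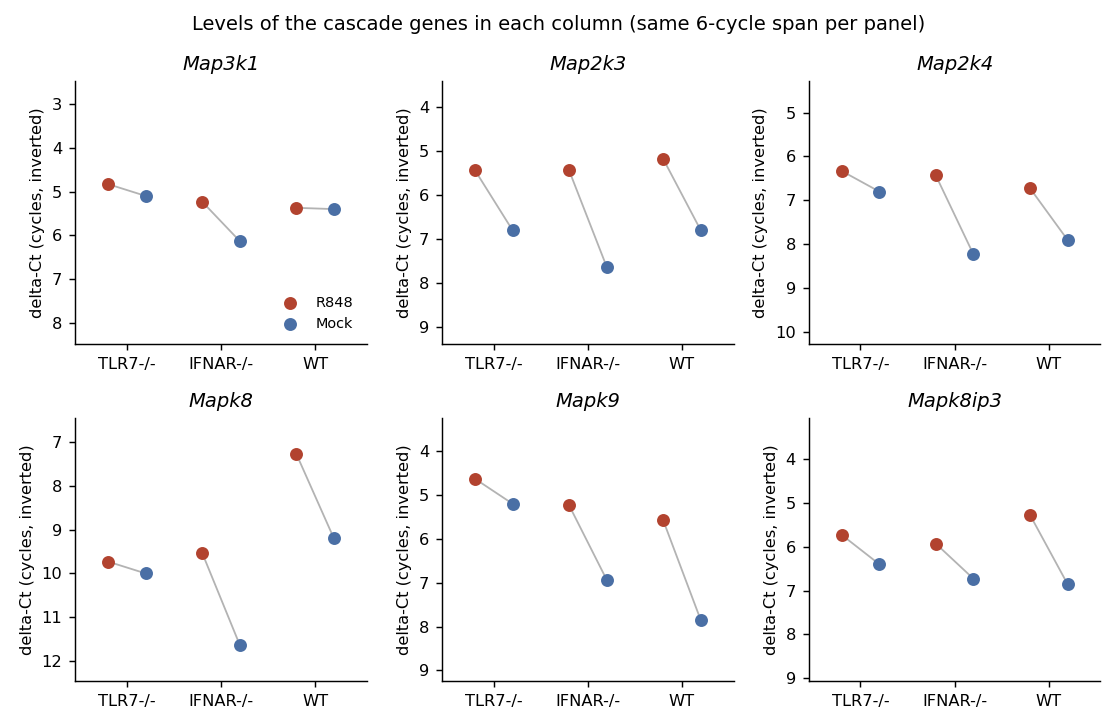
Delta-Ct of each cascade gene in the 6 columns, on an inverted axis so that a higher point is a higher level. Red points are R848 and blue points Mock, joined within a strain, and wild-type points are means of 2 experiments. *Mapk8* in wild type sits above both deficient strains in both treatments, while *Map3k1* spans only 1.30 cycles.

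The MAP2K tier is represented by *Map2k3*, encoding MKK3, an activator of p38, and *Map2k4*, encoding MKK4, which activates JNK and can also activate p38. *Map2k3* had a delta-Ct of 5.43 with R848 and 6.80 with Mock in TLR7-/- spleen. In IFNAR-/- spleen it had 5.43 with R848 and 7.63 with Mock. In wild-type spleen it had 5.17 with R848 and 6.80 with Mock. The R848 columns lay within 0.26 cycles of each other and above every Mock column, and TLR7-/- and wild-type Mock read the same. The fold was 2.58 in TLR7-/-, 4.59 in IFNAR-/- and 3.10 in wild-type spleen. *Map2k3* was the only member 2-fold higher in TLR7-/- spleen and stayed so under all 5 other scalings tried, with log2 differences of 1.20 to 1.5. Of the 84 genes it had the second highest log2 difference there. After centring, its IFNAR-/- log2 difference of 2.20 became 0.95, just under 2-fold.

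*Map2k4* differed less. Its delta-Ct was 6.33 with R848 and 6.80 with Mock in TLR7-/- spleen. It was 6.43 with R848 and 8.23 with Mock in IFNAR-/- spleen. It was 6.72 with R848 and 7.90 with Mock in wild-type spleen. As for *Map2k3*, the R848 columns were close together, within 0.39 cycles, and the Mock columns were spread out. The fold was 1.39 in TLR7-/-, 3.48 in IFNAR-/- and 2.27 in wild-type spleen. The wild-type value fell short of 2-fold, at log2 differences of 0.68 to 0.95, under 4 of the 5 other scalings and was 1.70 with *Hsp90ab1* alone.

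The bases upstream of both MAP2K genes are shown because these genes share a tier and differ in TLR7-/- spleen. They are RefSeq sequences of build GRCm38.p6, 250 bases before the start listed first for each gene, written 5′ to 3′ on the strand of the gene, with GC boxes (GGGCGG on either strand) in capitals. *Map2k3* lies on the plus strand, at chr11:60931804-60932053, and *Map2k4* on the minus strand, at chr11:65788360-65788609.
Map2k3: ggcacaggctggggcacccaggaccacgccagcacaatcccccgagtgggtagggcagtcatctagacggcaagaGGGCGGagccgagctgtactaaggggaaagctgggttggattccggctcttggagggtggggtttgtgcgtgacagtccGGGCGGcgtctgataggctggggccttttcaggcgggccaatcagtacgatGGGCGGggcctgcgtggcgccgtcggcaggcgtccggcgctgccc
Map2k4: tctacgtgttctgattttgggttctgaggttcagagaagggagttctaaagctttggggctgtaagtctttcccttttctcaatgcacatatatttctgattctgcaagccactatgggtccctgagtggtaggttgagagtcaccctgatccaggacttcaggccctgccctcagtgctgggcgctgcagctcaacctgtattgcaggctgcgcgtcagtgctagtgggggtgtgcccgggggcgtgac
The *Map2k3* window held 3 GC boxes and the *Map2k4* window 0, with GC contents of 67.6% and 54.0%.

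The MAPK tier consists of *Mapk8* (JNK1) and *Mapk9* (JNK2), closely related kinases that phosphorylate c-Jun. *Mapk8* had a delta-Ct of 9.73 with R848 and 10 with Mock in TLR7-/- spleen. In the IFNAR-/- strain it had 9.53 with R848 and 11.63 with Mock, and the Mock reading lay 0.80 cycles from the detection limit. In wild-type spleen it had 7.27 with R848 and 9.20 with Mock. Both wild-type columns thus read higher than all 4 columns of the deficient strains. The fold was 1.21 in TLR7-/-, 4.29 in IFNAR-/- and 3.81 in wild-type spleen, and the span over columns was 4.36 cycles, the widest of the 6 genes.

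*Mapk9* had a delta-Ct of 4.63 with R848 and 5.20 with Mock in TLR7-/- spleen. The IFNAR-/- columns were 5.23 with R848 and 6.93 with Mock. In wild-type spleen it had 5.57 with R848 and 7.85 with Mock. Within each treatment wild type was the lowest of the strains for *Mapk9* and the highest for *Mapk8*, while TLR7-/- Mock read higher than IFNAR-/- Mock for both genes. The fold was 1.48 in TLR7-/-, 3.25 in IFNAR-/- and 4.86 in wild-type spleen, the highest wild-type response among the members. All 5 other scalings left *Mapk8* and *Mapk9* at least 2-fold higher in wild type, at 1.43 to 2.45 and 1.78 to 2.80. In TLR7-/- spleen neither reached 2-fold under any of them.

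The distance between the Ct values of *Mapk8* and *Mapk9* in a column does not depend on the reference genes. It was 5.10 cycles with R848 and 4.80 with Mock in TLR7-/- spleen. It was 4.30 with R848 and 4.70 with Mock in IFNAR-/- spleen. It was 1.70 with R848 and 1.35 with Mock in wild-type spleen. Treatment moved this distance by 0.30, -0.40 and 0.35 cycles in TLR7-/-, IFNAR-/- and wild-type spleen, in the direction R848 minus Mock. Relative to wild type it was wider by 3.40 with R848 and 3.45 with Mock in TLR7-/-, and by 2.60 and 3.35 in IFNAR-/- spleen. Both comparisons use the same wild-type columns. Its range over columns, 3.75 cycles, was the widest of the 15 pairs of members. Among the 2346 pairs of 69 pathway genes that were never at the limit, 22.5% had a wider range. The run of the plates is not given in the labels, and neither strain nor treatment can be told apart from it.

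**Figure D3:**
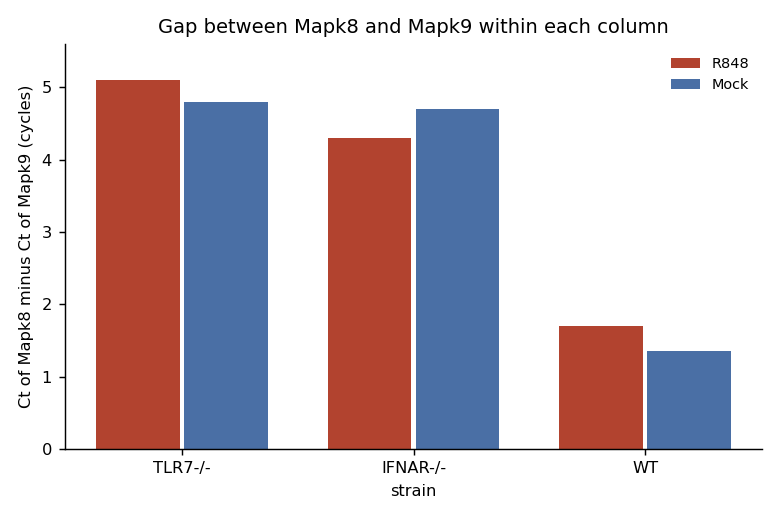
Ct of *Mapk8* minus Ct of *Mapk9* in each column, in cycles, with R848 in red and Mock in blue. The 4 bars of the deficient strains stand at 4.30 to 5.10 cycles, against 1.70 and 1.35 in wild type.

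The upstream bases of both JNK genes are shown beside this difference. Only bases outside the annotated gene are printed, which leaves 55 for *Mapk8* (minus strand, chr14:33447354-33447408) and 227 for *Mapk9* (plus strand, chr11:49846501-49846727), again with GC boxes in capitals.
Mapk8: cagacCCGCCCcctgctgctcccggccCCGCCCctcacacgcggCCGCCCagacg
Mapk9: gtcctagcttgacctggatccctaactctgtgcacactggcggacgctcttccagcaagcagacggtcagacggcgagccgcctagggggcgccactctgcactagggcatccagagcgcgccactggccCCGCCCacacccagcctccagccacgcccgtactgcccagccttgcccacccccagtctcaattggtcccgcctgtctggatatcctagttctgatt
The full windows of 250 bases held 7 GC boxes in *Mapk8* and 1 in *Mapk9*, with GC contents of 79.2% and 63.6%. Counting every listed start, the 6 genes have 8 windows, of which 5 held a GC box, against 32.7% of 32851 mouse windows of the same length. An AP-1 site (TGANTCA), searched on both strands, was found in no member's window and in 6.75% of all windows. A match or its lack describes these letters only.

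*Mapk8ip3* encodes JIP3, a scaffold that binds JNK and its upstream kinases. Its delta-Ct was 5.73 with R848 and 6.40 with Mock in TLR7-/- spleen. It was 5.93 with R848 and 6.73 with Mock in IFNAR-/- spleen. It was 5.27 with R848 and 6.85 with Mock in wild-type spleen. Wild type held both the highest and the lowest reading, and the Mock columns lay within 0.45 cycles. The fold was 1.59 in TLR7-/-, 1.74 in IFNAR-/- and 2.99 in wild-type spleen. In IFNAR-/- spleen its log2 difference of 0.80 was the lowest of the 6 and turned to -0.45 after centring.

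The responses of the deficient strains were then set against those of wild type, which asks how far each gene's response goes with the receptor that is missing. Relative to wild type the TLR7-/- response was at least 1 log2 unit lower in 2 of 6 members, *Mapk8* (-1.66) and *Mapk9* (-1.71), against 31.0% of the plate lower and 8.33% higher. The share of lower members was thus near that of the plate. The others differed by -0.91 (*Mapk8ip3*), -0.71 (*Map2k4*), -0.26 (*Map2k3*) and 0.24 (*Map3k1*). For IFNAR-/- no member reached 1 log2 unit either way, against 36.9% of the plate higher and 3.57% lower. Those differences were 0.87 (*Map3k1*), 0.62 (*Map2k4*), 0.57 (*Map2k3*), 0.17 (*Mapk8*), -0.58 (*Mapk9*) and -0.78 (*Mapk8ip3*). Both sets share the wild-type columns.

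The lower TLR7-/- responses of both JNK genes stood on different levels. For *Mapk8*, the level in TLR7-/- relative to wild type was lower by a log2 difference of -2.46 with R848 and -0.80 with Mock. For *Mapk9*, TLR7-/- was higher than wild type by 0.94 with R848 and by 2.65 with Mock. Relative to wild type, the larger difference was thus with R848 for *Mapk8* and with Mock for *Mapk9*. Both responses were lower by similar amounts, -1.66 and -1.71. The levels of the 2 genes are set apart by their wider distance in TLR7-/-, 3.40 cycles with R848 and 3.45 with Mock. That distance cannot be told apart from the run of the plates, which the labels do not give. The split therefore does not place either response in 1 treatment. For *Map2k4* TLR7-/- Mock was 1.10 higher than wild-type Mock, and R848 differed by 0.39. For *Map2k3* the 2 values were -0.26 with R848 and 0 with Mock. At least 1 cycle higher in Mock were 2 of 6 members, *Map2k4* and *Mapk9*, in TLR7-/- relative to wild type, against 48.8% of the plate.

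IFNAR-/- differed from wild type in level mainly at *Mapk8*. Its log2 difference in level was -2.26 with R848 and -2.43 with Mock, so the similar folds of both strains stood on different levels. *Mapk8* was the only member at least 1 cycle lower with R848 in either deficient strain, against 14.3% of the plate in TLR7-/- and 15.5% in IFNAR-/-. As 1 of 6 members, this was near the plate shares. No member was at least 1 cycle higher with R848, against 29.8% of the plate in each deficient strain. *Mapk8* was also the only member at least 1 cycle lower with Mock in IFNAR-/-, against 31.0%. The other 5 members differed from wild type by -0.66 to 0.34 with R848 and by -0.83 to 0.92 with Mock.

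**Figure D4:**
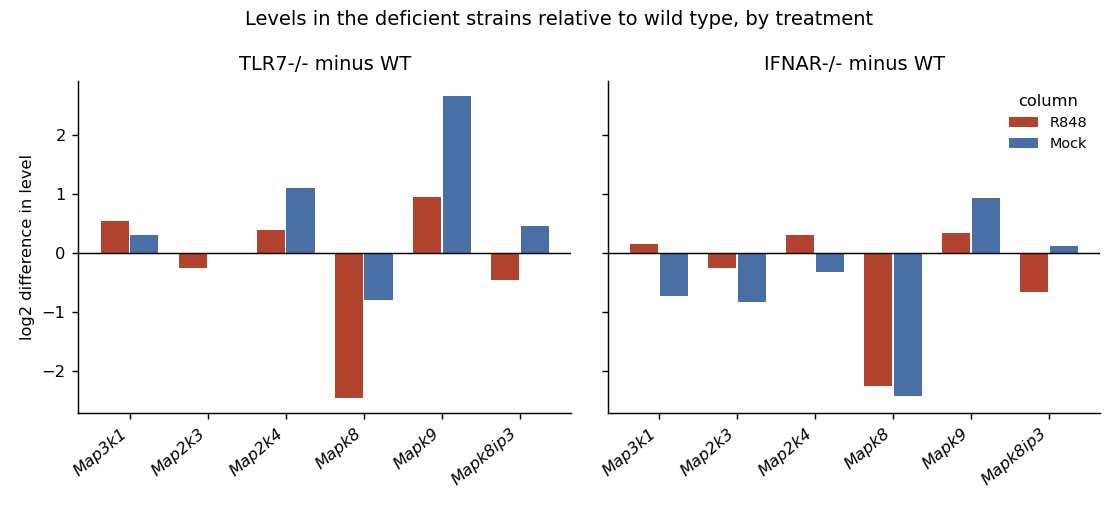
Log2 difference in level between each deficient strain and wild type for the 6 genes, with R848 in red and Mock in blue. The bars of *Mapk8* lie below 0 in both panels, and the tallest bar is that of *Mapk9* in TLR7-/- Mock, at 2.65.

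Other genes of the pathway on the plate were read from lists of upstream signalling, nuclear and AP-1-linked genes. Among the nuclear genes, *Jun*, encoding the JNK substrate c-Jun, had log2 differences of 0.47 in TLR7-/-, 4.10 in IFNAR-/- and 2.48 in wild-type spleen. Its delta-Ct was 3.03 with R848 and 3.50 with Mock in TLR7-/-, 3.53 and 7.63 in IFNAR-/-, and 4.27 and 6.75 in wild-type spleen. *Fos*, encoding the AP-1 partner of c-Jun, had -0.53, 2.30 and 0.08. *Elk1*, a transcription factor phosphorylated by MAPKs, had -0.43, 2.30 and -0.52. At least 2-fold higher were all 3 in IFNAR-/- spleen (53.6% of the plate), 1 in wild type (38.1%) and none in TLR7-/- spleen (4.76%).

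Of 9 upstream genes none was called 2-fold higher or lower in TLR7-/- spleen, against 4.76% and 3.57% of the plate. Of the same genes, 5 were higher in IFNAR-/- spleen and 1 lower there, and in wild type 2 were higher and 2 lower. The plate shares were 53.6% higher and 2.38% lower in IFNAR-/-, and 38.1% and 13.1% in wild type, so the share of higher genes in IFNAR-/- was near that of the plate. *Irak1* could not be called, being at the detection limit in at least 1 column of each strain. *Traf6* had log2 differences of 0.37 in TLR7-/-, 1.80 in IFNAR-/- and 3.03 in wild-type spleen. *Tnfrsf1a*, a receptor for TNF, had 0.37, 3 and 1.63. *Irak2*, a kinase of the MyD88 pathway, had 0.37, 2.30 and 0.03, and *Ube2v1*, a cofactor of ubiquitin conjugation with TRAF6, had 0.37, 1.5 and 0.93. *Tradd*, an adaptor of the TNF receptor, had -0.43, -1.10 and -1.42. *Ripk2*, which relays signals of NOD receptors, had -0.23, 0.50 and -1.77. *Hras1*, an input to the ERK branch, stayed within 2-fold in every strain.

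Of 6 transcripts linked to AP-1, *Il2*, *Csf2* and *Il6* were at least 2-fold lower in wild type, against 13.1% of the plate. None was called higher there, against 38.1%, and *Ptgs2* could not be called because its Mock reading was at the detection limit. In IFNAR-/- spleen *Il2* could not be called, and *Ccl2* (at least 111-fold), *Tnf* (14.9-fold) and *Il6* (at least 13.9-fold) were higher, 3 of 6 against 53.6% of the plate. In TLR7-/- spleen *Ptgs2* was 2.25-fold higher and *Ccl2* 43.1-fold lower, 1 of 6 each way, against 4.76% of the plate higher and 3.57% lower.

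Genes with a cell-type bias in spleen were read as markers, though none is exclusive to 1 cell type. Their sums moved more in IFNAR-/- and wild-type than in TLR7-/- spleen, and their part in the results was not tested. Summed as 2 to the minus delta-Ct, the 7 myeloid markers differed by log2 values of 0.00 in TLR7-/-, 1.41 in IFNAR-/- and 0.70 in wild-type spleen. Of the 7, 1 was at least 2-fold higher in TLR7-/-, 5 in IFNAR-/- and 3 in wild-type spleen, against 4.76%, 53.6% and 38.1% of the plate. *Cd14* was at least 111-fold lower in IFNAR-/- spleen, the only myeloid marker called lower in any strain. The 1 myeloid marker called higher in TLR7-/- spleen was also *Cd14*, at least 662-fold. The 3 B cell genes differed by -0.28, 0.65 and -0.71 and the 3 T and NK cell genes by 0.04, 0.26 and -1.20. In the T and NK sum *Lta* weighs most, having the lowest delta-Ct of the 3 in every column. Alone, *Lta* differed by 0.07, 0.10 and -1.37 and *Ifng* by -0.23, 1.20 and 0.38. *Il2* differed by -0.23 in TLR7-/- and by -1.57 in wild-type spleen. *Cd14* was at the limit in TLR7-/- Mock and in IFNAR-/- R848, *Btk* in all 4 columns of the deficient strains, and *Il2* in both IFNAR-/- columns.

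Patterns over the 6 columns were compared after centring each gene on its mean, for 63 other pathway genes never at the limit. The root mean square difference is a description, since all columns share their reference genes within a column. *Map3k1* was closest to *Nfrkb* (0.11 cycles) and *Muc13* (0.20), and *Map2k3* to *Tnfrsf1a* (0.44) and *Tnfaip3* (0.45). *Map2k4* was closest to *Il1r1* (0.31) and *Ube2v1* (0.32), *Mapk9* to *Tlr6* (0.34) and *Ube2v1* (0.44), and *Mapk8ip3* to *Map3k7* (0.27) and *Peli1* (0.37). *Mapk8* had no gene as close, with *Tlr1* at 0.71 and *Tnfrsf1a* at 0.81. The median over all member and candidate pairs was 0.89, and between members it was 0.81.

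**Figure D5:**
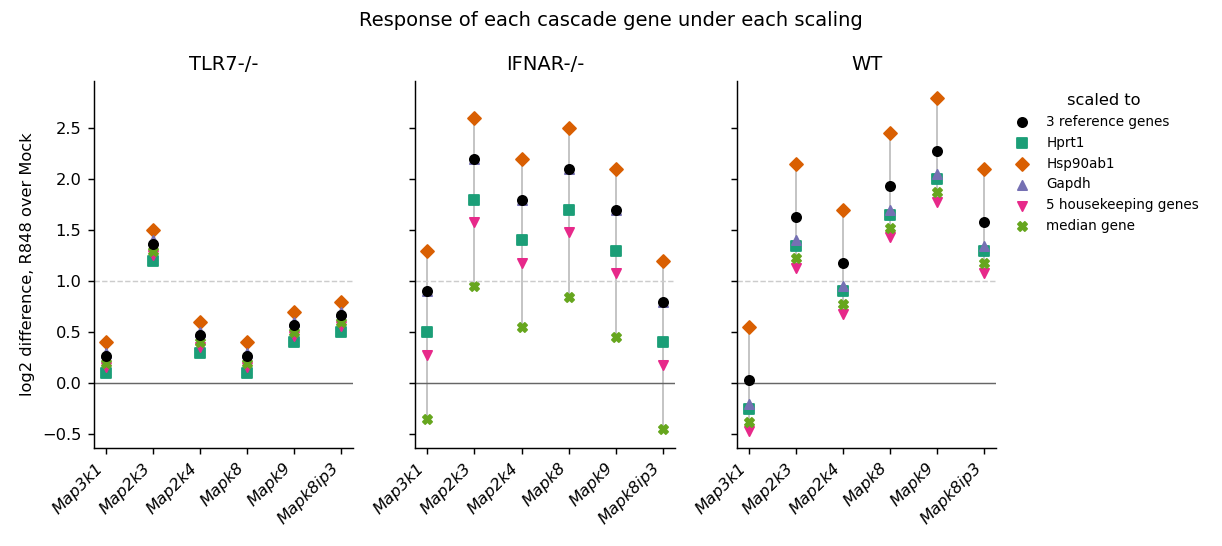
Log2 difference of R848 over Mock for each cascade gene when scaled to the 3 reference genes (black), to each of them alone, to 5 housekeeping genes or to the median gene of the plate. A dashed line marks 2-fold. In wild type, *Mapk8* and *Mapk9* stay above it under each scaling, whereas in IFNAR-/- spleen all 6 genes lie under it after centring on the median gene.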

How the data were processed

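Per the labels' protocols, each sample pools the spleen RNA of 3 mice, reverse transcribed with oligo(dT) primer and read on a TLR pathway RT² Profiler PCR plate. The deposited tables, 1 per strain, hold delta-Ct values, on a log2 scale and in cycles, and the ratio (fold) the authors computed between R848 and Mock. A Ct that was missing or exceeded 35 had been replaced with 35, per the design text of the series, and wild-type values summarise 2 experiments. Strain was taken from the table's name and treatment from the column name. The authors' deposited folds were recomputed from delta-Ct and matched for 89 of 89 genes in each table, within 0.01 cycles or 0.005 of a fold. The tables hold 6 more columns by sample, the same levels on a linear scale, which were not used.

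Of each column, the highest delta-Ct shared by several genes was read as the limit of 35, which gives the mean reference Ct. In wild-type R848 only 1 gene stood highest, so its reference Ct is an upper bound. A gene with a column at the limit was called only where the limit makes the difference a lower bound, and otherwise its direction was left uncalled. Calls were counted at 2-fold or 1 log2 unit, without tests, beside all 84 genes. The calling was also run on simulated plates built from the TLR7-/- Mock levels with an assumed noise. Their reference gap was close to that of TLR7-/-, so they do not cover the wider gaps of IFNAR-/- and wild type. A test planned for separate wild-type experiments was not run, since the table holds their mean.

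The members and lists were chosen with earlier results of these data known. The 6 members are always named, with *Jun*, *Fos* and *Elk1*. From the other lists, up to 4 genes per strain at 2-fold or more were named, and per member the 2 genes closest in pattern. Other scalings and folds were tried. Computation used Python 3.11.15 and numpy 2.4.6, and promoter sequences are RefSeq's, of build GRCm38.p6.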

Additional observations from a re-analysis of the deposited data

Results flagged for a closer look

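Several of the nuclear, upstream and AP-1-linked genes named above responded in opposite directions in a deficient strain and in wild type. These differences were not tested. Values are log2 differences of R848 over Mock. *Fos* had -0.53 in TLR7-/- and 0.08 in wild type, a difference of -0.61, and its wild-type sign turned with *Hprt1* or *Gapdh* alone, 5 housekeeping genes or centring. *Elk1* had 2.30 in IFNAR-/- and -0.52 in wild type, a difference of 2.82. *Ripk2* had 0.50 in IFNAR-/- and -1.77 in wild type (2.27), and *Csf2* had 0.80 and -1.37 (2.17). Centring on the median gene turned both IFNAR-/- values below 0, and scaling to 5 housekeeping genes did so for *Ripk2*. *Il6* had 0.27 in TLR7-/- and -1.12 in wild type (1.39). It had at least 3.80 in IFNAR-/-, so the difference from wild type was at least 4.92. *Ccl2* had at least 6.80 in IFNAR-/- and -0.12 in wild type, a difference of at least 6.92. With *Hsp90ab1* alone the wild-type value was 0.40 for *Ccl2* and 0 for *Elk1*. No cascade gene was in this group.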

How the results depend on the processing

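The counts of members at 2-fold were recomputed under 5 other scalings, at 1.5-fold and 3-fold, and without genes at the detection limit. In TLR7-/- spleen 2 members were higher at 1.5-fold and 0 at 3-fold, in place of 1. In IFNAR-/- spleen 0 were higher after centring, against 27.4% of the plate, in place of 4. In wild type 3 were at 3-fold, in place of 5. Members whose TLR7-/- response differed from wild type by 1 log2 unit numbered 4 with *Hsp90ab1* alone or at 1.5-fold, in place of 2. For IFNAR-/- they numbered 1 with *Gapdh* alone, 2 after centring and 3 at 1.5-fold, in place of 0. TLR7-/- Mock was also used as the control for the other strains, a choice made after seeing the data. With it 1 member was higher in IFNAR-/- and 3 in wild type. *Mapk9* turned to -0.03 in IFNAR-/- and -0.37 in wild type, and *Map3k1* to -0.13 and -0.27. The cause was not tested. The other 57 recomputed counts stayed within 1.5 times. Leaving out genes at the detection limit could not change a count, since no member stood there. The 57 also include every count of members 2-fold lower, which was 0 under each setting. Over the whole plate, centring took the IFNAR-/- calls to 23 higher and 9 lower from 45 and 2, and 5 housekeeping genes took the wild-type calls to 22 and 17 from 32 and 11. Under the 5 scalings, 30 of 30 member values stayed above 0 in TLR7-/-, 28 of 30 in IFNAR-/- and 26 of 30 in wild type. No paired analysis was possible because the wild-type table gives both experiments only as their mean, and leaving out an experiment was not run for the same reason. The spread between pools is unknown.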

Other observations

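Distances between the Ct values of 2 members within a column do not depend on the reference genes, and all 15 pairs ranged by more than 1 cycle over the 6 columns. The steadiest pair was *Map2k4* and *Mapk8ip3*, with *Map2k4* later by 0.60 with R848 and 0.40 with Mock in TLR7-/-, by 0.50 and 1.5 in IFNAR-/-, and by 1.45 and 1.05 in wild-type spleen. The distance from *Map2k4* to *Mapk8* lay between -3.40 and -3.10 cycles in the 4 columns of the deficient strains and was -0.55 with R848 and -1.30 with Mock in wild type. The distance from *Map2k4* to *Mapk9* was 1.20 to 1.70 in the deficient strains, and 1.15 with R848 and 0.05 with Mock in wild type. *Map3k1* lay within 0.80 cycles of *Mapk9* in 5 of the 6 columns and 2.45 cycles earlier in wild-type Mock.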
